A study of Mus musculus with 2 samples.

Results

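Ccl2, Ccl7, Ccl8 and Ccl12, which encode chemokines of the CC family, and Ccr2, which encodes the receptor that brings monocytes out of the marrow, were followed through the cells of the inflamed temporomandibular joint. They were taken by symbol and are 5 of the 32285 genes counted. The tissue was the joint of C57BL/6 mice 8 to 10 weeks old after injection of complete Freund's adjuvant (CFA, mycobacteria in oil) into the joint capsule. It was profiled by droplet single-cell RNA-seq in 1 library from wild-type (WT) mice and 1 library from Prox1 mutant mice, heterozygous by the study's methods. Prox1 encodes the transcription factor that sets lymphatic endothelial identity, and the mutant served as a model of failing lymphatics. The mutation was carried by every cell, both libraries had CFA, no uninjected joint was analysed here, and the number of mice behind a library is not given in the sources used here. With 1 library per condition no difference between WT and mutant could be tested, so every difference below is one between these 2 libraries. A ratio is given as past 2-fold only for genes with at least 200 UMIs over both.

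CC chemokines are small secreted proteins that leukocytes follow up a gradient, and their receptors couple to inhibitory G proteins. Ccl2, Ccl7 and Ccl12 bind CCR2, whose loss keeps classical monocytes in the bone marrow, while mouse Ccl8 acts mainly on another receptor, CCR8. In inflamed joints stromal cells and macrophages are the usual sources of these ligands, and tissue monocytes and their young progeny carry CCR2.

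The 4 ligand genes lie side by side on chromosome 11 (GRCm38), all on the plus strand and each with 3 exons. Ccl2 occupies 82035571 to 82037453, Ccl7 82045712 to 82047525, Ccl12 82101845 to 82103400 and Ccl8 82115185 to 82116799, with Ccl11, an eosinophil chemokine gene, between Ccl7 and Ccl12. Ccr2 lies on chromosome 9 at 124101950 to 124113557 on the plus strand. Gm17268, on the minus strand, overlaps Ccl2 and was counted apart with 1005 UMIs over all barcodes. The promoters of Ccl12 and Ccl8 are shown because both genes peaked in the same macrophages below, yet there only Ccl12 was past 2-fold between the libraries. They are the 250 bases before each start in RefSeq (GRCm38, plus strand), at chr11:82101595-82101844 and chr11:82114935-82115184, with matches to 2 of the motifs searched in capitals. Promoters are not shown for Ccl2 and Ccl7.
Ccl12: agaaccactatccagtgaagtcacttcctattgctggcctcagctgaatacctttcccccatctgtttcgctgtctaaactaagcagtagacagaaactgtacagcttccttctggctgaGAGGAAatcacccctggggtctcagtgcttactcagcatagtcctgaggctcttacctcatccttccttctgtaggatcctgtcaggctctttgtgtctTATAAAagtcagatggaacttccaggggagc
Ccl8: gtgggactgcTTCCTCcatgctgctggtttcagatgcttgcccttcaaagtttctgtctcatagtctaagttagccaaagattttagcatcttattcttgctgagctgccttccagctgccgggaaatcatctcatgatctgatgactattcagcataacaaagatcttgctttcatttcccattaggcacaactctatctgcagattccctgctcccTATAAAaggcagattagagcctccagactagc

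Both hold TATAAA, the core of the TATA box, at 31 to 26 bases before the start in Ccl12 and 32 to 27 in Ccl8, a match found in 12.4% of 32851 promoters on either strand. GAGGAA, the core bound by the myeloid factor PU.1, stands at 130 to 125 bases before the start of Ccl12 on the plus strand and at 240 to 235 before that of Ccl8 on the minus strand, and occurs in 23.3% of promoters on either strand. These are matches of letters only. On neither strand do these windows hold TGANTCA (AP-1, 6.75% of promoters), GGGNNNNNCC (a loose NF-kB motif, 45.8%), the ISRE (GAAA, any 2 bases, GAAA, 2.98%), TTCNNNGAA (STAT dimers, 7.02%) or TTGCNNAA (C/EBP, 9.56%). The sequences share 147 of 232 aligned bases, 63.4%, and their longest shared run is 8 bases.

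The WT library held 5709 barcodes and 53517206 UMIs, and the mutant 7846 and 62446987. After removal of droplets with fewer than 500 genes or at least 10% mitochondrial UMIs, 4352 WT and 5757 mutant cells stayed, with medians of 6997 and 4848 UMIs. Clusters were named from marker lists that left out the 5 genes, and every cell type below means a cluster like that type by its markers. In the mutant library 31.5% of the cells fell in clusters that took no name, against 8.02% of the WT cells, and erythroid markers were higher in several of its classes, as given beside the results. CPM denotes a gene's UMIs per 1e+06 UMIs of the class. Prox1 was detected at 41.6 CPM (exact 95% interval 37.0 to 46.6) in WT endothelial cells and at 25.9 (21.4 to 30.9) in mutant ones. Intervals here and below cover counting error only, not variation between mice or between the cells of a class. In all, 10 barcodes occurred in both libraries.

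Over all kept cells Ccl8 counted 2308 UMIs in WT and 6642 in mutant, or 47.7 and 122 CPM. Ccl2 stood at 27.4 CPM in WT and 57.0 in mutant, Ccl7 at 56.2 and 70.2, Ccl12 at 11.1 and 14.7, and Ccr2 at 50.2 and 56.3. Each of the 5 levels was higher in the mutant library, Ccr2 by the least and Ccl8 by the most. These levels also move with which cells were captured, and within some classes Ccl7, Ccl12 or Ccr2 was lower in mutant, as given below.

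Few cells held most of the ligand RNA. In WT, 50% of the UMIs of Ccl2 lay in 29 of 4352 cells, of Ccl7 in 22, of Ccl8 in 11 and of Ccl12 in 9, while Ccr2 needed 79. In mutant these counts were 37, 31, 19, 13 and 82 of 5757 cells. By this measure the UMIs of Ccr2, a membrane receptor, were less concentrated than those of the secreted ligands in both libraries. The number of cells with any UMI was 367 for Ccr2 and 288 for Ccl8 in WT, but 625 and 1125 in mutant. A single mutant droplet held 923 Ccl8 UMIs, 13.9% of that library's Ccl8, and the 10 richest cells held 55.3% of the Ccl12 in WT and 45.3% in mutant. Sums over a class can therefore turn on 1 cell.

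**Figure D1:**
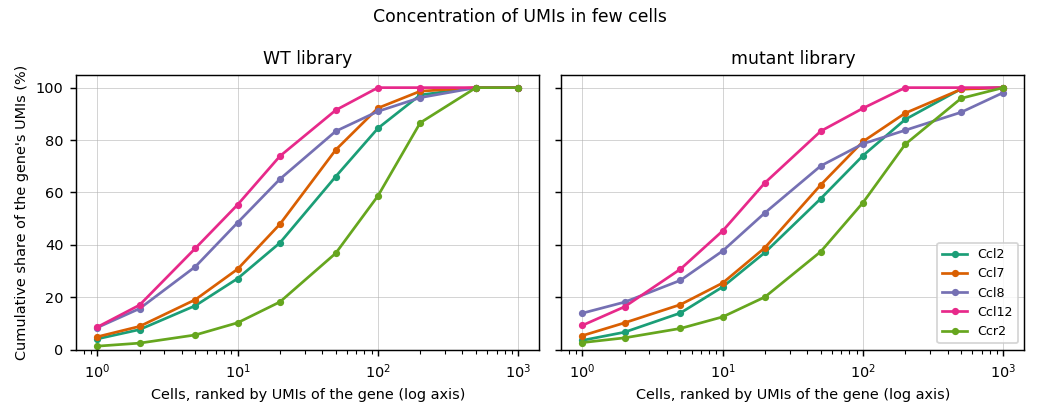
Cumulative share of each gene's UMIs (vertical axis, %) against the number of cells ranked by UMIs of that gene (horizontal log axis), WT left and mutant right. The Ccr2 curve lies lowest at 10 cells, 10.2% in WT and 12.5% in mutant, and Ccl12 highest, 55.3% and 45.3%.

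Among all classes the resident-type macrophages, an M2-like group led by Psd3, Ccl8 and Mrc1 (76 WT and 101 mutant cells), had the highest level of Ccl7, Ccl8 and Ccl12 in both libraries, with intervals apart from the next class. Their Ccl8 reached 1004 CPM in WT (946 to 1065) and 1047 in mutant (1005 to 1091). Ccl7 stood at 745 (695 to 797) and 434 (407 to 463), and Ccl12 at 327 (294 to 362) and 131 (117 to 147). Ccl7, Ccl8 and Ccl12 are among the 10 leading genes of the group, although it was clustered and named without them. Ccl2 stood at 268 (239 to 300) and 266 (245 to 289), the highest class in WT and the second in mutant.

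Between the libraries these macrophages kept Ccl2 and Ccl8 at like levels while Ccl7 and Ccl12 were lower in the mutant. The log2 ratio of mutant to WT was -0.01 (-0.21 to 0.19) for Ccl2 and 0.06 (-0.04 to 0.16) for Ccl8. It was -0.78 (-0.91 to -0.64) for Ccl7, -1.32 (-1.54 to -1.09) for Ccl12 and -0.62 (-0.89 to -0.36) for Ccr2. Of the 5 genes, 1 was past 2-fold lower and 0 past 2-fold higher, against 1.09% and 1.36% of 3017 genes with at least 200 UMIs, whose median was -0.03. Folr2, Mrc1 and the 4 other markers of the group summed to 1419 CPM in WT and 757 in mutant, with 6 of 6 detected in each, and the 5 erythroid markers to 62.4 CPM (4 detected) and 2008 (5 detected). The 6 monocyte markers summed to 1515 and 712 CPM there, and the 7 neutrophil markers to 260.2 and 887. The part of these shifts in the ratios was not tested. When macrophages were clustered at the coarser resolution of 0.2, the group named resident-type held 239 WT and 288 mutant cells. No interferon-responding group was named there. In that larger group the log2 ratio was -0.24 for Ccl12, 0.14 for Ccl7, 1.31 for Ccl2, 0.53 for Ccl8 and 0.31 for Ccr2.

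At equal depth the Ccl12 difference appeared also as fewer positive cells. With each cell thinned to 2000 UMIs, 34.2% (23.7 to 46.0) of WT and 12.9% (7.04 to 21.0) of mutant resident-type cells held a Ccl12 UMI. Unthinned, these shares were 50% (38 of 76 cells) and 34.7% (35 of 101). For Ccl8 the thinned shares were 39.5% and 42.6%, for Ccl7 39.5% and 30.7%, and for Ccl2 38.2% and 26.7%, with overlapping intervals. In B, erythroid, endothelial and Schwann cells, which serve as background, the thinned share of Ccl12 was at most 0.219% and that of Ccl8 1.55% in WT and 3.21% in mutant.

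**Figure D2:**
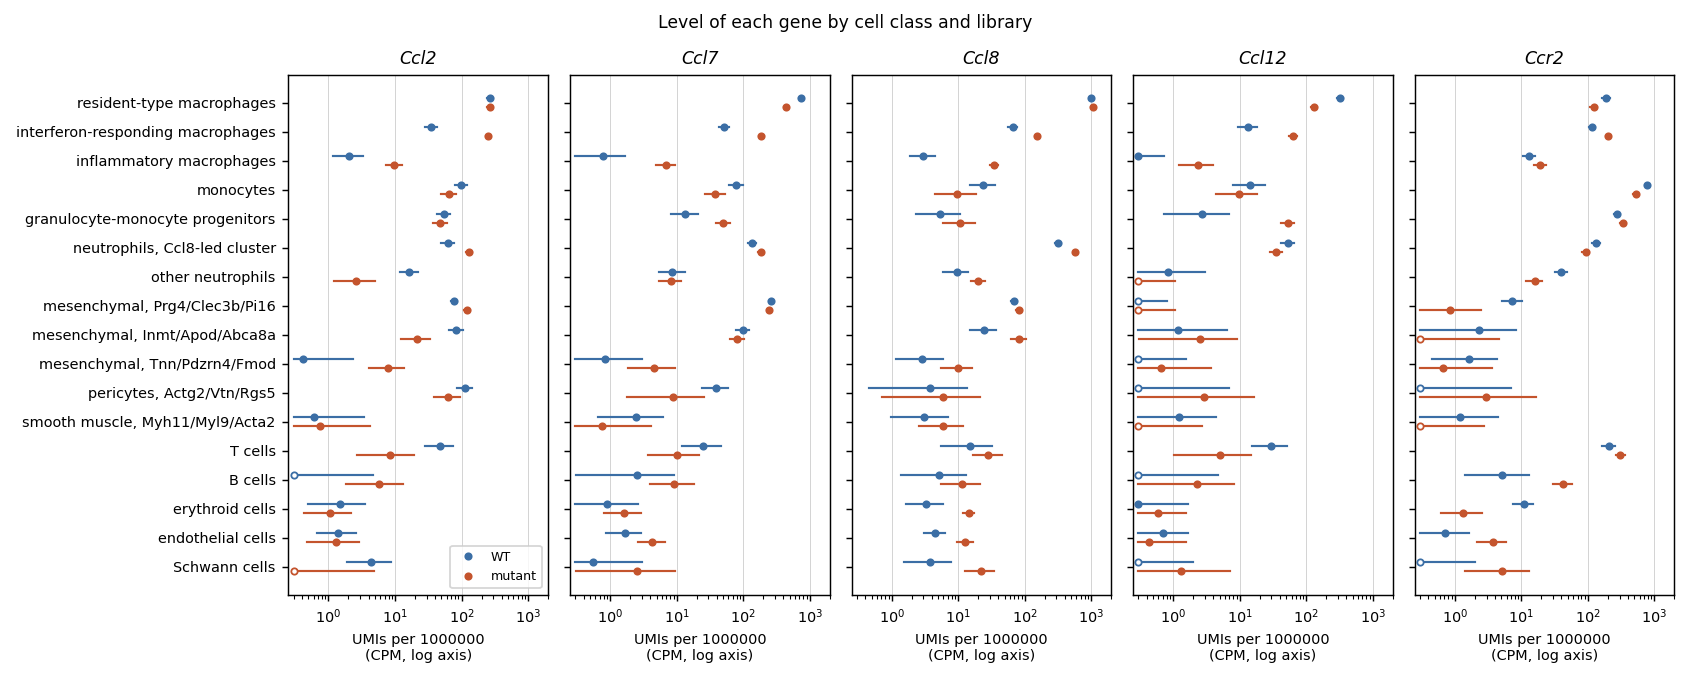
Level of each gene in CPM (log axis) by cell class, WT and mutant, with exact 95% intervals of counting error. Open points are classes with 0 UMIs, and values under 0.3 CPM are drawn at 0.3. Resident-type macrophages stand highest for Ccl7, Ccl8 and Ccl12 and monocytes for Ccr2, while Ccl8 in erythroid cells lay at 3.30 in WT and 14.4 in mutant.

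The interferon-responding macrophages, led by Gm15056, Cxcl9 and Spon1 (163 WT and 188 mutant cells), held more of all 4 ligands in the mutant library. Ccl2 stood at 35.1 CPM in WT (28.4 to 42.9) and 249 in mutant (233 to 266), and Ccl7 at 52.1 and 189. Ccl12 stood at 13.3 and 63.1, Ccl8 at 65.7 and 153, and Ccr2 at 117 and 199. In mutant their Ccl2 interval overlapped that of resident-type macrophages, whereas in WT it lay far below it. The log2 ratios were 2.83 (2.52 to 3.15) for Ccl2, 1.86 (1.60 to 2.13) for Ccl7, 1.22 (0.97 to 1.47) for Ccl8, 2.25 (1.74 to 2.80) for Ccl12 and 0.77 (0.58 to 0.97) for Ccr2. The 4 ligands were past 2-fold higher, against 2.77% of 4580 genes higher and 1.38% lower, with a median over genes of 0.15.

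1 WT cell held 115 of the 178 Ccl8 UMIs of WT interferon-responding macrophages, and without the richest cell of each library the Ccl8 ratio was 2.18. Thinned to 2000 UMIs, 3.11% (1.02 to 7.10) of WT and 18.6% (13.3 to 24.9) of mutant cells held Ccl2, against 16.0% and 36.2% unthinned. The thinned shares of Ccl12 were 4.97% and 4.26%, so that at this depth the Ccl12 difference did not appear as a share of cells. Unthinned, 17 of 163 WT and 35 of 188 mutant cells held Ccl12, with group medians of 13852 and 15078 UMIs. Markers of other cells moved with the group: the 7 neutrophil markers, all detected, summed to 1197 CPM in WT and 3204 in mutant, the 6 monocyte markers to 1805 and 2985, and the 5 erythroid markers to 979 and 2268. The 6 macrophage markers were lower in mutant, at 5273 and 3596 CPM, as were the 6 inflammatory markers, at 3960 and 2453. The 5 interferon-responding markers themselves summed to 1017 and 2042. They summed to 605 and 1068 CPM in resident-type macrophages, 436 and 622 in inflammatory macrophages and 711 and 590 in monocytes. Outside these groups they summed to 1004 and 1491 in mesenchymal cells led by Prg4, and to 2803 and 2119 in neutrophils led by Cstdc4. Of the interferon-responding group, 0% of WT and 5.32% of mutant cells had the top doublet scores. The part of these markers in the ratios was not tested. Retnlg and Ly6c2 are among its 10 leading genes, and the group took its name in 4 of 11 clusterings. Where cells were instead picked by UMIs of its markers and of C1q, the log2 ratio was 1.28 for Ccl2, 0.32 for Ccl7, 1.21 for Ccl8 and -0.42 for Ccl12.

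The inflammatory, M1-like macrophages, led by H2-M2, Tnfsf15 and Spp1 (225 WT and 164 mutant cells), had the lowest level of all 5 genes among the 3 named macrophage groups in both libraries. Ccl2 stood at 2.06 CPM in WT and 9.69 in mutant, Ccl7 at 0.77 and 6.82, Ccl12 at 0.13 and 2.33, and Ccr2 at 13.1 and 19.2. Ccl8 stood at 2.96 (1.88 to 4.44) and 35.0 (30.3 to 40.3), and 1 mutant cell held 89 of the 195 UMIs. The 5 erythroid markers summed to 70.7 CPM in WT and 1008 in mutant there, and their part in these levels was not tested. Of the 2 genes with 200 UMIs, Ccl8 was past 2-fold higher and 0 lower, against 2.11% and 0.789% of 6211 genes. The thinned share of cells with Ccl8 in mutant was 2.44% (0.67 to 6.13), at the level of the background cells. Over all macrophages together, Ccl2 and Ccl8 were past 2-fold higher: Ccl2 stood at 34.8 and 120 CPM, Ccl7 at 84.8 and 136, Ccl8 at 109 and 272, Ccl12 at 33.2 and 42.1, and Ccr2 at 57.1 and 89.3. There 2.97% of 8283 genes were past 2-fold higher and 0.99% lower. These pooled levels also move with the mix of groups, which differed between the libraries. Inflammatory macrophages held 7767675 UMIs of all genes in WT and 5571664 in mutant, and resident-type macrophages 1122247 and 2231272. The part of this mix in the pooled levels was not tested. Among the reclustered macrophages and monocytes, some subclusters took no name. That led by Acta2, Tagln and Mecom (33 WT and 152 mutant cells) had Ccl8 at 8.94 CPM in WT (1.08 to 32.3) and 608 in mutant (547 to 675). Of its cells, 15.2% in WT and 3.29% in mutant had the top doublet scores. The 5 erythroid markers summed to 13757 and 23201 CPM there. That led by Col3a1, Col1a2 and Col1a1 (68 and 145 cells) had Ccl8 at 19.0 (7.64 to 39.2) and 142 CPM (118 to 169), and Ccr2 at 147 and 63.4. Its erythroid markers summed to 138 and 1558 CPM. The part of erythroid markers in these levels was not tested.

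Mesenchymal cells, the fibroblast and tendon-type stroma of the joint (544 WT and 414 mutant cells), were another main source of Ccl2 and Ccl7 and had almost no Ccl12. Ccl7 stood at 164 CPM in WT (156 to 174) and 165 in mutant (155 to 175), and Ccl2 at 55.2 (50.2 to 60.6) and 111 (103 to 120). Ccl8 stood at 44.1 and 65.0. Ccl12 counted 1 UMI in WT and 10 in mutant, and Ccr2 40 and 16. The log2 ratio was 0.00 (-0.12 to 0.12) for Ccl7, 1.01 (0.83 to 1.18) for Ccl2 and 0.56 (0.35 to 0.77) for Ccl8, which came to 0.27 (0.04 to 0.50) without the richest cell of each library. Of the 3 genes with at least 200 UMIs, Ccl2 was past 2-fold higher and 0 were past 2-fold lower, against 1.09% and 0.804% of 8085 genes.

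The Ccl2 difference rested in part on 1 cluster led by Mmp10 and Cxcl5, which held 8 WT and 67 mutant cells, counts Ccl2 among its 10 leading genes, and may be a trait of that library and not a type. Its Ccl2 stood at 730 CPM (638 to 832) in mutant, above that of every other class, and at 176 (88.0 to 315) in WT, where 1 cell held all 11 UMIs. The 5 erythroid markers summed to 35565 CPM in its mutant cells and the 6 mesenchymal markers to 3850, against 112 and 16283 in the 8 WT cells. The part of these markers in the result was not tested. Without this cluster Ccl2 stood at 54.3 and 77.9 CPM, a log2 ratio of 0.52 (0.33 to 0.72), while Ccl7 stood at 163 and 161 and Ccl8 at 44.2 and 63.4. With all clusters that each setting named mesenchymal, the Ccl2 ratio was between 0.33 and 0.57 in 6 other ways of filtering or clustering. It was between 0.91 and 1.02 in the 6 remaining alternatives, 2 of which were past 2-fold. The cells so named differed, as 539 WT and 345 mutant with doublets removed and 544 and 451 with the 5 genes kept as features. The cells of the Mmp10 cluster need not be among them in each setting.

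Within the stroma Ccl2, Ccl7 and Ccl8 were higher in the fibroblast clusters than in the tendon-type one. The cluster led by Prg4, Clec3b and Pi16 (242 WT and 138 mutant cells), which holds the Pi16-positive fibroblasts, had Ccl7 at 259 and 248 CPM, Ccl2 at 77.0 and 121, and Ccl8 at 69.4 and 82.5, a log2 ratio of 0.25 that became -0.21 without the richest cell of each library. The cluster led by Inmt, Apod and Abca8a (123 and 103 cells) had Ccl7 at 99.4 and 81.4. Its Ccl2 stood at 83.0 and 21.3, with 54 of 71 WT UMIs in 1 cell, and its Ccl8 at 24.5 and 81.4, with 43 of 65 mutant UMIs in 1 cell. The cluster led by Tnn, Pdzrn4 and Fmod (171 and 106 cells) had Ccl7 at 0.83 and 4.63, Ccl2 at 0.42 and 7.93, and Ccl8 at 2.91 and 9.92. The 5 erythroid markers summed to 1165 CPM in WT and 1459 in mutant in the cluster led by Prg4. They summed to 86.5 and 1265 in that led by Inmt, and to 98.4 and 1056 in that led by Tnn. Their part in these levels was not tested. In the background cells Ccl7 stood at 1.38 and 3.17, Ccl2 at 1.76 and 1.39 and Ccl8 at 4.14 and 14.1.

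Pericytes led by Actg2, Vtn and Rgs5 had Ccl2 at 114 CPM in WT (87.0 to 146) and 61.8 in mutant (38.2 to 94.4), but 35 of 61 WT UMIs and 17 of 21 mutant UMIs were in 1 cell each. Smooth muscle cells led by Myh11, Myl9 and Acta2 had 1 Ccl2 UMI in each library, 0.61 and 0.75 CPM.

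Ccr2 was highest in monocytes, led by Vcan, Ctnnd2 and Chil3 with 6 of 6 monocyte markers raised (71 WT and 55 mutant cells). It stood at 787 CPM in WT (732 to 845) and 524 in mutant (478 to 573), a log2 ratio of -0.59 (-0.75 to -0.42). Thinned to 2000 UMIs, 74.6% of WT and 65.5% of mutant monocytes held a Ccr2 UMI, with overlapping intervals. Of the 5 genes Ccr2 alone had 200 UMIs there, and 0 of 1 was past 2-fold, against 3.46% of 1849 genes higher and 1.95% lower. The direction of this ratio changed with the cells taken: it was 0.17 in cells picked by monocyte marker UMIs (330 WT and 229 mutant cells) and positive in 4 other clusterings. In those 4 the cells named monocytes numbered 195 WT and 263 mutant with the filter at 200 genes and 216 and 239 with merging. They numbered 93 and 131 with resolution 0.5, and 165 and 202 with the 5 genes kept as features. With log-normalization, 234 and 260 cells kept a negative ratio. In the 71 WT and 55 mutant monocytes above, the monocyte markers summed to 10956 and 6443 CPM. There the macrophage markers summed to 935 and 2131 CPM and the erythroid markers to 61.8 and 3213. Of these monocytes, 0% in WT and 7.27% in mutant had the top doublet scores. The part of these in the result was not tested.

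Next to monocytes, Ccr2 stood at 272 CPM in WT and 339 in mutant in granulocyte-monocyte progenitors, and at 207 and 309 in T cells, the intervals of which overlapped with the progenitors in each library. The next level was 189 CPM in WT, in resident-type macrophages, whose interval overlapped that of T cells, and 199 in mutant, in interferon-responding macrophages, whose interval did not. Of the 184 Ccr2 UMIs of mutant T cells, 55 lay in 1 cell. Endothelial cells had Ccr2 at 0.70 CPM in WT and 3.69 in mutant. Monocytes also held Ccl2, at 98.9 CPM in WT and 64.8 in mutant, with the UMIs spread over 27 and 17 cells. Of their 76 WT Ccl7 UMIs, 67 lay in 1 cell.

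One cluster of neutrophils was led by Ccl8 itself, with Retnlg and Mmp8, and held 49 WT and 243 mutant cells, at median depths of 21117 and 3937 UMIs. Its Ccl8 stood at 318 CPM in WT (289 to 349) and 575 in mutant (547 to 603), a log2 ratio of 0.85 and, without the richest cell of each library, 0.39 (0.18 to 0.60). The 6 macrophage markers summed to 2894 and 2928 CPM there. They summed to 137 and 131 in the neutrophils led by Camp, Ngp and Lcn2, and to 534 and 421 in those led by Cstdc4, Stfa2l1 and Il1f9. In the Ccl8-led cluster, 28.6% of WT and 10.7% of mutant cells had the top doublet scores. The 5 erythroid markers summed to 1072 CPM in its WT cells and 14804 in its mutant cells. The part of macrophage or erythroid markers or doublets in its ligand levels was not tested. Without this cluster, neutrophils had Ccl8 at 9.5 and 20.2 CPM, Ccl2 at 16.5 and 2.63, Ccl7 at 8.67 and 8.18, and Ccl12 at 0.83 and 0.

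A larger part of the Ccl2, Ccl7 and Ccl12 RNA lay in interferon-responding macrophages in the mutant library, and a smaller part in resident-type macrophages. The stromal part was smaller for Ccl2 and Ccl7. Mesenchymal cells held 33.2% of the Ccl2 UMIs in WT and 21.9% in mutant, and 48.1% and 26.4% of Ccl7, but 0.187% and 1.25% of Ccl12. Interferon-responding macrophages held 7.18% and 29.7% of Ccl2, 5.18% and 18.3% of Ccl7 and 6.73% and 29.1% of Ccl12. Resident-type macrophages, 1.75% of the cells of each library, held 22.8% and 19.2% of Ccl2, 30.7% and 25.4% of Ccl7, 48.8% and 35.2% of Ccl8 and 68.6% and 36.6% of Ccl12. Monocytes held 31.4% and 15.9% of Ccr2. These shares also moved with how many cells of a class were captured, since mesenchymal cells were 12.5% of WT and 7.19% of mutant cells.

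**Figure D3:**
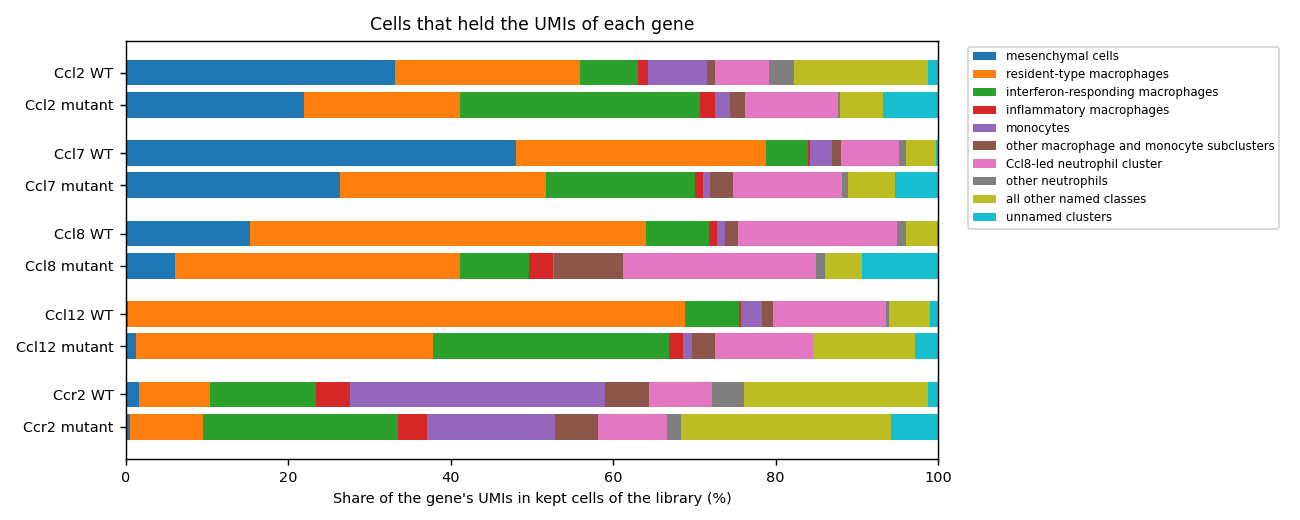
Share of each gene's UMIs (horizontal axis, %) held by each group of cells, 1 bar per gene and library, each summing to the kept cells of that library. Unnamed clusters held 0.173% of the WT Ccl8 and 9.33% of the mutant Ccl8.

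Ccl8 was also found in the cells used as background, more often in the mutant library. Of the background cells, 2.65% of WT and 11.1% of mutant held a Ccl8 UMI, at median depths of 4753 and 7323 UMIs. For Ccl2 these shares were 0.702% and 0.829%. The mutant level of Ccl8 in the background cells was 14.1 CPM, and in the Schwann cells among them 22.0. Ccl8 stood higher, at 53.2 to 124 CPM, in the mutant cells of the unnamed clusters led by Ccdc85a, Ctla2a, Lipf and Igkc, with median depths of 1318 to 2370 UMIs. In the mutant cells of the other unnamed clusters it stood at 141 CPM (led by Abca13), 133 (Igha), 129 (Acta2), 23.3 (Car1) and 8.30 (Muc13).

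**Figure D4:**
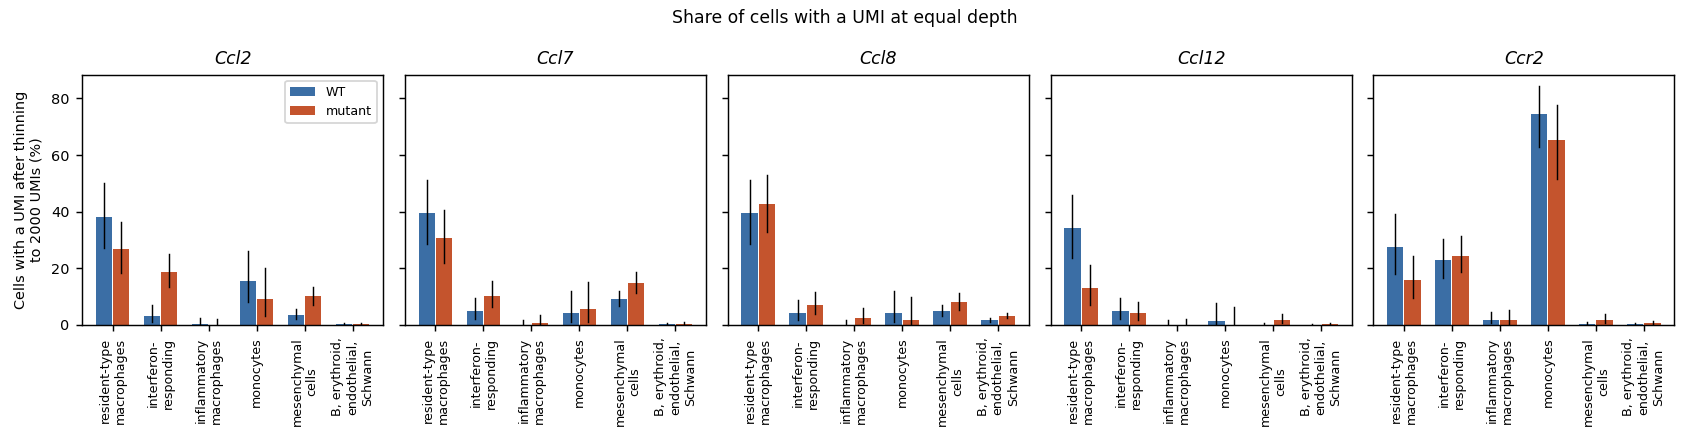
Share of cells with at least 1 UMI after thinning each cell to 2000 UMIs (vertical axis, %), by class and library, with exact binomial 95% intervals as lines. Ccl2 in interferon-responding macrophages went from 3.11% in WT to 18.6% in mutant, and Ccl12 in resident-type macrophages from 34.2% to 12.9%.

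Ccl7 was found in a larger share of the cells with Ccl2 than of those without it. In resident-type macrophages 75.0% of cells with Ccl2 also held Ccl7 in WT, against 28.6% of cells without it, and 75.8% against 20.5% in mutant. Mesenchymal cells gave 72.1% against 13.2% in WT and 85.5% against 14.5% in mutant, although WT cells with Ccl2 were deeper, 22315 against 11510 UMIs at the median. In WT resident-type macrophages Ccl8 was found in 34.3% of cells with Ccr2 and 70.7% of cells without it at median depths of 12528 and 12916 UMIs, but in mutant in 60.0% and 62.1%. In mutant interferon-responding macrophages, 48.0% of cells with Ccr2 held Ccl2, against 22.1% of cells without it. These are shares of detection and carry no test.

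Over 64 points, each a class in a library, Ccl2 was most like Ccl7 (Pearson r of log2(CPM + 5), 0.854, over 13696 genes compared), and then like Naaa, Ifi211, Tmem106a and the overlapping Gm17268 (0.659). Ccl7 was most like Ccl2, Ifi207, Ifi204, Ccl8 and Pla2g15 and Ccl8 like C1qa (0.753), C1qc, Ccl7, Ms4a7 and Pf4. Ccl12 was most like Slamf9 (0.820), Clec4b1, Fcgr1, C3ar1 and Aif1, and Ccr2 like Ms4a4c (0.918), Ms4a6b, Ms4a6c, Itgb7 and Ifi209. The points share their libraries and depth, so r describes these profiles only.

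**Figure D5:**
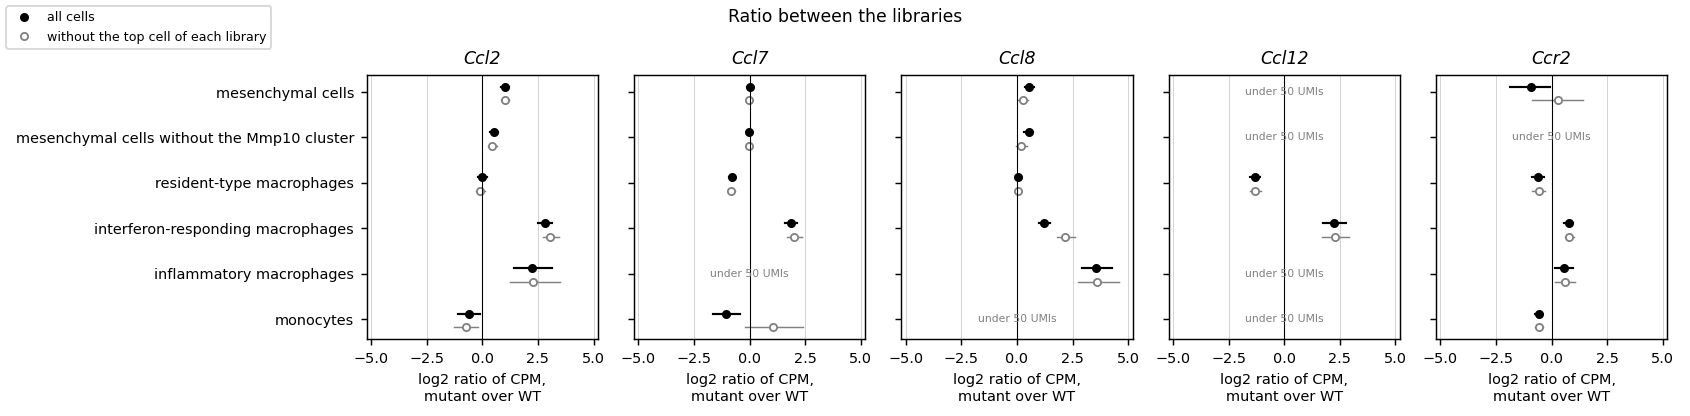
Log2 ratio of CPM, mutant over WT, for each gene (panels) in 6 groups of cells, with exact 95% intervals; filled points use all cells and open points leave out the richest cell of each library. Ccl2 reached 2.83 in interferon-responding macrophages against -0.01 in resident-type ones, and ratios on fewer than 50 UMIs are not drawn.

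Other genes of the chemokine system, 47 in a list of further CC ligands, receptors, receptor partners, inducer receptors and NF-kB feedback genes, were compared by the same measure. In mesenchymal cells 21 of the 47 had at least 200 UMIs, 2 were past 2-fold higher and 0 lower, with a median log2 ratio of -0.04. Those were Ccl5, a T cell chemokine, at 11.4 and 37.5 CPM, and Ackr2, a scavenging receptor for CC chemokines, at 13.96 and 29.6. In resident-type macrophages 0 of 21 were higher and 2 lower: Ccl3 at 327 and 91.4 CPM and Ccl4 at 1022 and 307, both macrophage inflammatory proteins. Monocytes showed the same pair lower, 2 of 17, with Ccl3 at 530 and 187 and Ccl4 at 1660 and 371. In interferon-responding macrophages 1 of 24 was lower, Ccl6 at 865 and 387 CPM, and 0 were higher.

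Over all macrophages, whose mix of groups differed between the libraries as given above, 1 of 27 was past 2-fold higher and 2 lower. Ccl24, an eosinophil chemokine, stood at 3.14 and 18.6 CPM, with 78 of 250 mutant UMIs in 1 cell. Ccl6 stood at 1763 and 579, and Ccl1 counted 277 and 2 UMIs, 274 of the WT ones in 1 cell. The ligands with the most UMIs in all cells were Ccl6 (39074), Ccl5 (29984) and Ccl4 (23340), and among the receptors Ccrl2 counted 15587 and Ccr1 6497. Ccr8, the receptor of Ccl8, counted 15 UMIs, with its highest level of 15.1 CPM in mutant T cells.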

How the data were processed

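Single-cell 3' RNA-seq was run on 1 WT and 1 Prox1 mutant library of CFA-injected joints. The deposited files hold raw UMI counts per gene and barcode, which the authors made with Cell Ranger 7.0.1 against mm10; whether introns were counted is not given in the sources used here. The kit version in the labels differs from that in the study's methods. Barcodes below 500 genes, or with 10% of UMIs or more from mitochondrial genes, were dropped. Cells were clustered in Seurat 5.3.0 (sctransform 0.4.2, R 4.3.3) with SCTransform per library, anchor integration on 3000 features without the 5 genes, 200 principal components and resolution 1.5. Macrophages and monocytes were clustered again with 30 components at resolution 0.5. A cluster was named where at least 3 markers of a list were raised at least 2-fold and found in 10% of its cells. Scrublet (scanpy 1.11.5) called 0 doublets in both libraries by its own threshold, so doublets were kept, and the 239 WT and 462 mutant barcodes with the top scores were removed as an alternative.

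UMIs were summed per class and library and given as CPM with exact Poisson intervals, shares with exact (Clopper-Pearson) binomial intervals, and ratios with exact conditional binomial intervals, all at 95% (Python 3.11.15, scipy 1.17.1, numpy 2.4.6). Shares were thinned to 2000 UMIs per cell, leaving out 509 WT and 1269 mutant cells that were shallower. No test between conditions was made. The ratio step was checked on simulated class totals drawn from the Poisson distribution that the intervals assume. That check holds no spread between cells, so it cannot show how the intervals do where 1 cell holds most UMIs. The 5 genes, the marker lists and the chemokine list were chosen with earlier results of these data known. Genes named beside the 5 were listed genes past 2-fold, the 3 ligands and 3 receptors with the most UMIs, the 5 genes most correlated with each of the 5, and the 3 leading genes of a cluster, except items not reported here; Ccr8 and further leading genes were named after their values were seen. Alternatives changed the cell filter, doublets, integration, normalization, components, resolution, denominator, thinning depth and way of picking cells. Those without the Mmp10 or Ccl8-led cluster, and the picking of resident-type, interferon-responding and monocyte cells by marker UMIs, were added after seeing the data. The plan named B and erythroid cells as background for shares, and endothelial and Schwann cells were added to them.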

Additional observations from a re-analysis of the deposited data

Results flagged for a closer look

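The log2 ratio of mutant to WT had opposite signs in different classes for each of the 5 genes, and with 1 library per condition these differences between classes were not tested. For Ccl2 it was 2.83 in interferon-responding macrophages and -0.61 in monocytes. For Ccl7 it was 3.14 in inflammatory macrophages, on 6 WT and 38 mutant UMIs, and -1.05 in monocytes, where it was 1.04 without the richest cell of each library. For Ccl8 it was 3.56 in inflammatory macrophages and -1.28 in monocytes, on 23 and 9 UMIs in the latter, where it was 0.54 without the richest cell of each library. For Ccl12 it was 4.18 in inflammatory macrophages, on 1 and 13 UMIs, and -1.32 in resident-type macrophages. For Ccr2 it was 0.77 in interferon-responding macrophages and -0.94 in mesenchymal cells, on 40 and 16 UMIs, where it was 0.27 without the richest cell of each library.

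Barcodes removed by the cell filter, 1357 in WT and 2089 in mutant, also held the 5 genes. Over both libraries they held 47 UMIs of Ccl2, 74 of Ccl7, 350 of Ccl8, 19 of Ccl12 and 87 of Ccr2. For Ccl8 this was 13.01 CPM in WT and 34.9 in mutant.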

How the results depend on the processing

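Of 125 alternative values of log2 ratios, 73 moved by less than their counting interval, 44 moved further and 8 changed sign; the cause was not tested, and no condition was tested, for want of replicate libraries. Ccl2 in mesenchymal cells stayed higher in mutant in all 13 alternatives, under 2-fold in 11 of them and past it, at 1.02, with another denominator or without the richest cells, and the sign of Ccr2 in monocytes turned with the choice of cells. The Ccl2 log2 ratio in mesenchymal cells was 1.01 and became 0.57 with the filter at 1000 genes, 0.57 with doublet removal, 0.33 with merging, 0.46 with log-normalization, 0.41 with resolution 0.5, 0.57 with the 5 genes kept as features and 0.52 with the Mmp10 cluster left out. The Ccl2 share of UMIs (%) held by mesenchymal cells was 25.3 and became 20.5 with the filter at 1000 genes, 21.8 with doublet removal, 20.9 with merging, 19.3 with log-normalization, 20.3 with resolution 0.5, 21.4 with the 5 genes kept as features, 22.8 with picking by class markers and 19.9 with the Mmp10 cluster left out. The Ccl7 share of UMIs (%) held by mesenchymal cells was 35.4 and became 36.7 with doublet removal, 33.7 with log-normalization, 36.8 with 30 components, 37.0 with unnamed clusters added, 31.3 with picking by class markers and 34.01 with the Mmp10 cluster left out. The Ccl7 log2 ratio in mesenchymal cells was 0.00 and became -0.13 with merging and -0.12 with resolution 0.5. The Ccl8 share of UMIs (%) held by resident-type macrophages was 38.7 and became 37.2 with the filter at 200 genes, 40.5 with the filter at 1000 genes, 49.0 with log-normalization, 36.1 with 30 components, 37.2 with resolution 0.5 and 69.7 with picking by subset markers. For this group, picking by class markers and resolution 0.2 each took far more cells than the 76 WT and 101 mutant ones. Their values here and below belong to broader sets, not to resident-type macrophages alone. Log-normalization and picking by subset markers also took more cells, but fewer than these. In the broader sets the Ccl8 share was 81.9 with picking by class markers and 47.0 with resolution 0.2. The Ccl8 log2 ratio in resident-type macrophages was 0.06 and became 0.22 with doublet removal, -0.26 with merging, 0.36 with log-normalization, 0.18 with 30 components and 0.22 with picking by subset markers. In the broader sets it was 1.23 with picking by class markers and 0.53 with resolution 0.2. The Ccl12 log2 ratio in resident-type macrophages was -1.32 and became -0.94 with the filter at 1000 genes, -1.72 with merging and -1.05 with log-normalization. In the broader sets it was -0.40 with picking by class markers and -0.24 with resolution 0.2. The Ccl12 share of UMIs (%) held by resident-type macrophages was 49.4 and became 55.3 with the filter at 1000 genes, 57.9 with doublet removal, 53.9 with log-normalization and 54.4 with picking by subset markers. In the broader sets it was 73.6 with picking by class markers and 69.5 with resolution 0.2. The Ccr2 log2 ratio in monocytes was -0.59 and became 0.53 with the filter at 200 genes, -0.42 with the filter at 1000 genes, 0.28 with merging, -0.18 with log-normalization, 0.49 with resolution 0.5, 0.57 with the 5 genes kept as features, -0.35 with resolution 1 and 0.17 with picking by subset markers. The Ccr2 share of UMIs (%) held by monocytes was 22.8 and became 20.4 with the filter at 200 genes, 18.2 with the filter at 1000 genes, 25.3 with doublet removal, 19.1 with merging, 38.1 with log-normalization, 25.5 with 30 components, 17.7 with resolution 0.5, 19.0 with the 5 genes kept as features, 20.2 with resolution 1 and 21.2 with picking by subset markers. The Ccl12 log2 ratio in interferon-responding macrophages was 2.25 and became -0.42 with picking by subset markers. The Ccl7 log2 ratio in resident-type macrophages was -0.78, and in the broader set of resolution 0.2 it was 0.14. The Ccr2 log2 ratio in resident-type macrophages was -0.62, and in the broader set of resolution 0.2 it was 0.31. With at least 50 UMIs in place of 200, listed genes past 2-fold numbered 3 higher in all macrophages, and 1 higher and 4 lower in monocytes. No paired analysis was possible because each condition has 1 library. Ccl12 and Ccr2 in stroma rest on 40 UMIs or fewer per library. In the cluster led by Prg4, Ccl12 counted 0 UMIs in both libraries, with upper limits of 0.80 CPM in WT and 1.06 in mutant. The part of depth in these low counts was not tested.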
